A study of Mus musculus with 6 samples.

Results

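Solute carriers are the membrane proteins that move amino acids, sugars, nucleosides, ions, metals and vitamins across the plasma membrane and the membranes of organelles. The transcripts described here were those on the array whose gene symbol begins with Slc and a digit, leaving out Slc2a1, Slc2a3, Slc16a1, Slc16a3 and Slc7a11. A gene was kept where 1 of its probes reached a normalized signal of 60 or more on at least 1 array, and it was represented by the probe with the highest mean signal over the 6 arrays. Of 351 such genes on the array (641 probes), 117 were kept and 234 stayed below 60 on every array. They were among 7363 kept genes of all kinds. The members nearest the minimum had highest values of 61.4 (Slc38a9), 61.8 (Slc1a4) and 62.1 (Slc25a53) on the inside. On the outside they were 59.9 (Slc25a30), 58.0 (Slc25a37) and 57.9 (Slc25a42).

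The cells were E14 mouse embryonic stem cells expressing Snail-ER, in which the repressor Snail (Snai1) is joined to an estrogen receptor domain that holds it out of the nucleus until 4-hydroxytamoxifen (4-OHT) binds. All 6 arrays came from cells with the fusion, grown in medium with fetal bovine serum, LIF, nonessential amino acids and pyruvate, and differed in the hours of 4-OHT, which were 0, 2, 4, 8, 12 and 24 h, with 1 array at each. The question was how transcripts change after the fusion is sent to the nucleus. The labels give neither the dose of 4-OHT nor whether the arrays came from separate cultures or how many clones carried the fusion, and neither time-matched untreated cells nor cells lacking the fusion were analysed here. Hours in culture, 4-OHT and the fusion therefore cannot be told apart, and the p-values reflect only the scatter between single arrays, which may be technical.

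Embryonic stem cells divide fast and draw heavily on amino acids, nucleosides and one-carbon donors. Carriers of the SLC7 and SLC38 families bring in cationic and neutral amino acids, SLC29 carriers exchange nucleosides, SLC25 carriers link the mitochondrial matrix to the cytosol, and SLC35 carriers feed activated sugars to the endoplasmic reticulum and Golgi. Snail represses transcription by binding the E-box CAGGTG, and is best known for shutting off epithelial genes.

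The labelled cell type was checked against marker lists. Pou5f1 lay between 3920 and 6189 on the 6 arrays, and all 12 pluripotency genes of a fixed list were kept, of which 6 fell and 1 rose by the test described next. Of 7 measured markers of differentiated lineages, 0 reached 60. Of 8 measured fibroblast feeder markers, 1 did (Thy1, which had values of 161, 195, 214, 126, 113 and 91.6 in order of hours and did not pass the test). The collagens Col1a1, Col1a2 and Col3a1 were at or near 0, with a highest value of 5.68. The signal at which a probe counted as detected differed between arrays, at 60.6, 71.1, 31.4, 62.0, 18.5 and 18.9 in order of hours. It was thus highest at 0, 2 and 8 h, and 81 of the 117 genes were detected on all 6 arrays.

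A slope of log2(signal + 16) against log2(hours + 1) was tested for each gene with limma, and the fitted change is the slope carried from 0 to 24 h, in log2 units with its standard error (SE). At an adjusted p of 0.05, 19 of the 117 transporter genes fell (16.2%), against a background of 7.47% of all kept genes, and 4 rose (3.42%), against 6.7%. The other 94 did not pass. Among genes detected on all 6 arrays the test called 15 of 81 transporter genes lower, against 7.15% of all such genes, and 4 of 81 higher, against 6.03%. The detection limit was 60.6 at 0 h and 18.9 at 24 h. This set therefore keeps a dim gene more readily if it fell than if it rose. The share of all genes was held to the same limits. The minimum itself favours falls where a gene reached 60 at 0 h alone. That was so for 4 transporter genes, of which 2 are among the 19 (Slc25a22 and Slc37a1). Also among the 19, Slc41a1 reached it at 0 and 2 h alone, and Slc31a2 at 0, 2 and 4 h alone. A fall of Slc25a22, Slc37a1, Slc41a1 and Slc31a2 was thus partly set by how genes were kept. With a mean of at least 60 over the 6 arrays as the minimum for all genes, 15 of 92 transporter genes fell (16.3%), against 7.6%, and 4 rose (4.35%), against 6.96%. The median fitted change was -0.11 over the transporter genes and 0.014 over all genes. These counts depended on single arrays. When the 0 h array was left out, 7 fell (2.87% of all genes) and 0 rose (2.62%), although 10 sloped up at an unadjusted limma p under 0.05. The falls numbered 11 when the 2 h array was left out, 11 for the 12 h array and 8 for the 24 h array, against 3.94%, 3.67% and 4.83% of all genes. With untransformed hours, or with no minimum signal for the genes tested, 0 passed the adjusted limma test in either direction. At an unadjusted limma p under 0.05 the counts were then 26 lower and 10 higher, or 24 lower and 13 higher. In the fit as first given they were 30 lower (25.6%, against 15.4% of all genes) and 19 higher (16.2%, against 15.7%). For the fits without the 0 h array, with untransformed hours or with no minimum, shares of all genes at that p were not counted.

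**Figure D1:**
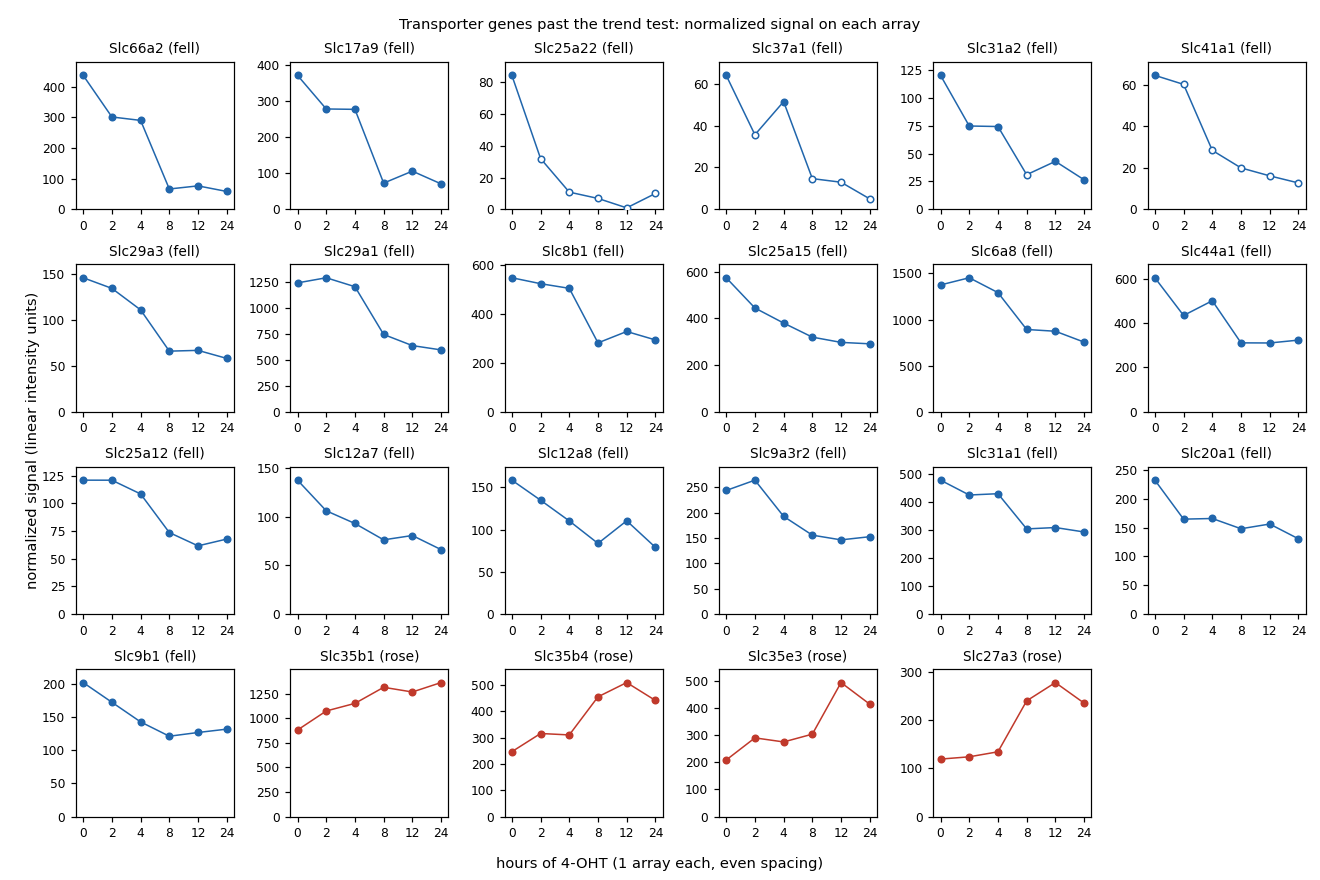
Normalized signal (linear intensity units, vertical axes from 0) of each of the 23 transporter genes past the limma trend test, plotted against hours of 4-OHT at even spacing, with 1 point per array and no error bars because each time has 1 array. Filled points are above that array's detection limit and open points below it; blue panels are the 19 genes that fell and red panels the 4 that rose, with most of the drop between 4 and 8 h in panels such as Slc66a2, Slc17a9 and Slc29a1.

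The deepest measured fall was that of Slc66a2, which encodes a membrane protein of the PQ-loop family. Its signal was 437, 301, 290, 66.3, 76.5 and 58.3 at 0, 2, 4, 8, 12 and 24 h. All 3 later arrays lay below all 3 earlier ones, the 24 h array was 6.10-fold below the 0 h array on the scale of signal + 16, and the fitted change was -3.02 ± 0.43 (SE; limma adjusted p = 0.0041). Slc17a9, the vesicular nucleotide transporter that loads ATP into secretory vesicles, was next among genes detected on every array. It measured 372, 279, 278, 72.8, 106 and 70.7 in order of hours. Here too the 3 later arrays were apart from the earlier ones, and the fitted change was -2.45 ± 0.40 (SE; limma adjusted p = 0.0059). The second probe of Slc17a9 read 272, 202, 185, 65.9, 64.9 and 57.8 and passed as well, and the fitted change was -2.29.

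Of the 6 nucleoside and nucleobase carriers, 2 fell (33.3%, against 7.47% of all kept genes) and 0 rose (against 6.7%). Both of those that fell belong to the equilibrative SLC29 family. Slc29a1 encodes ENT1, the main plasma membrane exchanger of nucleosides in many cells, and its signal was 1240, 1289, 1203, 743, 636 and 595 in order of hours. It was flat through 4 h and lower from 8 h, 2.06-fold below 0 h at 24 h, and the fitted change was -1.27 ± 0.25 (SE; limma adjusted p = 0.010). A second probe of Slc29a1 gave 260, 292, 260, 192, 141 and 145 and also passed (fitted change -1.01; limma adjusted p = 0.023). Slc29a3, the intracellular relative ENT3, measured 146, 134, 111, 65.9, 66.7 and 58.0. Its later arrays were again all below the earlier ones, and the fitted change was -1.31 ± 0.25 (SE; limma adjusted p = 0.0093). Slc29a4 of that family measured 141, 182, 152, 187, 212 and 195, and the fitted change was 0.47 ± 0.19, which did not pass (SE; limma adjusted p = 0.12). Slc43a3, a carrier of purine nucleobases, was detected on the 0 h array alone, at 65.4.

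Among 15 carriers of inorganic ions and protons, 5 fell (33.3%, against 7.47% of all kept genes) and 0 rose (against 6.7%). A downward slope was seen for 13 (86.7%, against 48.7% of all genes). Among these were Slc12a1, Slc12a4, Slc17a1 and Slc26a3, which were below detection on 2 to 5 arrays. Slc8b1, the mitochondrial sodium and calcium exchanger, had values of 548, 524, 505, 282, 328 and 294. It was lower on every array from 8 h on, and the fitted change was -1.05 ± 0.24 (SE; limma adjusted p = 0.018). Slc12a7, the potassium chloride cotransporter KCC4, declined from the first interval on, at 137, 106, 93.0, 76.2, 80.6 and 66.2 (fitted change -0.89 ± 0.21 SE; limma adjusted p = 0.019). Slc12a8, of the same family, measured 158, 135, 110, 83.6, 110 and 79.0. Its 12 h array equalled its 4 h array to the digits shown, so the groups of earlier and later arrays met, and the fitted change was -0.86 ± 0.22 (SE; limma adjusted p = 0.030). Slc20a1, the sodium phosphate cotransporter PiT1, made its largest step in the first 2 h, from 232 to 165, and then read 166, 148, 156 and 131. Its fitted change was -0.67 ± 0.18 (SE; limma adjusted p = 0.031). Slc9b1, a sodium proton exchanger, ran 202, 172, 142, 121, 126 and 131, and the fitted change was -0.66 ± 0.19 (SE; limma adjusted p = 0.044), a call that held in 1 of the 6 fits without 1 array. Its direct neighbour Slc9b2, with no protein-coding gene between them in RefSeq, measured 81.2, 83.8, 75.8, 60.3, 59.01 and 67.04 and did not pass.

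All 7 members of the SLC12 family had a downward slope, against 48.7% of all genes, and 5 did not pass. The 2 that fell were 28.6% of the family, against 7.47% of all kept genes. Slc12a2, the sodium potassium chloride cotransporter NKCC1, ranged from 1293 at 12 h to 1690 at 2 h (fitted change -0.30 ± 0.16 SE; limma adjusted p = 0.21). Slc12a3 was level, between 364 and 449 (fitted change -0.02 ± 0.17 SE). Slc12a1 and Slc12a4 were irregular. Slc12a1 measured 18.9, 77.7, 43.8, 141, 7.02 and 5.87, and Slc12a4 measured 36.5, 126, 36.6, 86.3, 13.1 and 27.1. Both were highest on the 2 h and 8 h arrays, which along with the 0 h array had the highest detection limits, and the part of the array in these values was not tested. Slc12a1 and Slc12a4 reached the minimum signal on the 2 h and 8 h arrays alone, so higher values there were built into how they were kept. Slc26a3 was detected on the 2 h array alone, at 73.3. It read 34.1 at 8 h, below detection, and 17.2 or less on the other arrays, so a shape shared with Slc12a1 and Slc12a4 was not resolved. Slc26a3 reached the minimum signal at 2 h alone, so its peak there was built in too.

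The E-box CAGGTG was sought on both strands (as CAGGTG or CACCTG) in RefSeq promoter windows of GRCm38.p6, each from 250 bases before to 50 after a start site, with every window of a gene counted. It was present for 5 of the 15 transporter genes that fell and had a window (33.3%), for 0 of the 4 that rose and for 15 of 73 that did not pass. It was also present for 22.6% of all 27025 genes with a window and for 19.98% of the kept genes with one. The 5 genes were Slc12a7, Slc12a8, Slc29a1, Slc37a1 and Slc9a3r2. Windows are printed for the first 4 of them, 1 each, because these genes fell and hold the letters that Snail is known to bind. They are chr13:73763410-73763709 (plus strand, Slc12a7), chr16:33517078-33517377 (plus strand, Slc12a8), chr17:45599569-45599868 (minus strand, Slc29a1) and chr17:31295974-31296273 (plus strand, Slc37a1), written 5′ to 3′ along the gene with the E-box in capitals.
Slc12a7: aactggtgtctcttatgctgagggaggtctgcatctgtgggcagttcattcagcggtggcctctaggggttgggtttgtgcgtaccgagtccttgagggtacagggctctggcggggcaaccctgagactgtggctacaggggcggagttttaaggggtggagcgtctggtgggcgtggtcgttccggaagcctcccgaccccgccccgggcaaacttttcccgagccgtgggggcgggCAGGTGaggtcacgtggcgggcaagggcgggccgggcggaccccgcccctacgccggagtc
Slc12a8: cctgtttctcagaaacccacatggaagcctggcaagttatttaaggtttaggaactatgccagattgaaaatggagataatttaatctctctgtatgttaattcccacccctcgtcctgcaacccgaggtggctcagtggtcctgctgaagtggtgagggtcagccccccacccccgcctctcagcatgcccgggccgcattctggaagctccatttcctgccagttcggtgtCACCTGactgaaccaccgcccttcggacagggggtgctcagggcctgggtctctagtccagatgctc
Slc29a1: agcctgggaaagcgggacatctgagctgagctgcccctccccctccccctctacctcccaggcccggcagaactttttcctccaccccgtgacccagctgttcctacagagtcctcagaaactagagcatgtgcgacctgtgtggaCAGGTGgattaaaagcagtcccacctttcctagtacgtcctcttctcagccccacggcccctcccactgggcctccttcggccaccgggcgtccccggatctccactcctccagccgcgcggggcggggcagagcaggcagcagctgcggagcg
Slc37a1: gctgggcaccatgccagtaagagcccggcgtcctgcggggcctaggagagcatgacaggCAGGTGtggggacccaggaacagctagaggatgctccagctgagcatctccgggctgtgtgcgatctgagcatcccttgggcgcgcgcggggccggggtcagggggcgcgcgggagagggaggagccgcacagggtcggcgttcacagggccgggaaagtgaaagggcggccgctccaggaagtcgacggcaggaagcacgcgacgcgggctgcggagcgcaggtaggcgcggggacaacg
In these windows the E-box begins 11 bases before the start of Slc12a7, 17 before that of Slc12a8, 104 before that of Slc29a1 and 191 before that of Slc37a1. A match of letters is a description and shows no binding. Genes differed in the number of windows searched. Slc29a1 had 8, of which 4 held the E-box, Slc12a8 had 3 with 2 holding it, Slc12a7 had 2 with both holding it, and Slc37a1 had 1. Slc29a3 had 1 window, with no match.

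Of 19 carriers of metals and heme, 3 fell (15.8%, against 7.47% of all kept genes) and 0 rose (against 6.7%). Both copper carriers fell. Slc31a1, the high-affinity copper importer CTR1, measured 478, 425, 429, 304, 309 and 293 (fitted change -0.77 ± 0.18 SE; limma adjusted p = 0.018). Slc31a2, its relative CTR2, went from 120 at 0 h through 74.7, 74.2, 31.02 and 43.0 to 26.5 at 24 h, 3.20-fold below 0 h, and was below detection at 8 h. It reached the minimum of 60 at 0, 2 and 4 h alone, so its fall was partly set by how genes were kept. The fitted change was -1.72 ± 0.33 (SE; limma adjusted p = 0.0093), and the 3 later arrays of both genes lay below the 3 earlier ones. The genes are near neighbours, with 1 protein-coding gene between them in RefSeq. Slc41a1, a magnesium carrier, was detected on the 0 h array alone, at 64.7, and read 12.7 at 24 h, at least 2.31-fold lower. It passed the test (fitted change -1.71 ± 0.44 SE; limma adjusted p = 0.028), but failed it in 4 of the 6 fits without 1 array, and it reached the minimum of 60 at 0 and 2 h alone.

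Zinc carriers showed no common direction, with 3 of 6 SLC30 and 4 of 6 SLC39 genes sloping upward and 0 of the 12 past the test. Of all kept genes, 7.47% fell and 6.7% rose. Slc39a4, the importer ZIP4, lay between 444 and 580. The iron carriers also did not pass. Slc40a1, the iron exporter ferroportin, read 72.1, 61.2, 61.0, 178, 184 and 139, so that every later array was above every earlier one. It was 2.21-fold above 0 h at 8 h and 2.28-fold at 12 h, but the fitted change of 1.35 ± 0.44 missed the threshold (SE; limma adjusted p = 0.062). Slc11a2, the importer DMT1, measured 155, 160, 185, 214, 236 and 194 (fitted change 0.48 ± 0.19 SE; limma adjusted p = 0.12). Slc11a1, an iron and manganese carrier best known from macrophages, lay between 1145 and 1655.

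Of 20 SLC25 carriers, which are mitochondrial except for the peroxisomal Slc25a17, 3 fell (15.0%, against 7.47% of all kept genes) and 0 rose (against 6.7%). Slc25a15, which exchanges ornithine and citrulline across the inner membrane, declined on every successive array, at 574, 444, 380, 320, 297 and 291. Its fitted change was -1.02 ± 0.16 (SE; limma adjusted p = 0.0048), and its largest step came in the first 2 h. Slc25a12, the aspartate and glutamate carrier aralar, was level at 121, 121 and 109 and then 73.7, 61.7 and 67.8 (fitted change -0.93 ± 0.25 SE; limma adjusted p = 0.035), and failed the test in 4 of the 6 fits without 1 array. Slc25a22, a glutamate carrier, was detected on the 0 h array alone, at 84.5, with 32.0 at 2 h and 10.8 or less after that. Its fitted change was -2.30 ± 0.67 (SE; limma adjusted p = 0.045), it was at least 2.88-fold lower at 24 h, and it did not pass without the 0 h array (limma adjusted p = 0.47). It reached the minimum of 60 at 0 h alone, so its fall was partly set by how genes were kept.

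Other carriers of energy metabolism did not pass. Slc25a5, the ADP and ATP exchanger ANT2, lay between 10215 and 11410 on the 6 arrays, and the fitted change was -0.03 ± 0.10 (SE; limma adjusted p = 0.89). Slc25a3, the phosphate carrier, was 4269, 4550 and 4090 on the earlier arrays, 6144 and 6285 at 8 and 12 h, and 4602 at 24 h. Its second probe read 538, 510, 564, 804, 833 and 742 in order of hours. Both probes were lower at 24 h than at 8 and 12 h. The first was then close to its earlier values, and the second stayed well above its own. Neither probe passed. Slc25a1, which exports citrate for lipid synthesis, was 567, 578 and 554 and then 376, 401 and 427. Its later arrays were all below the earlier ones, and the slope did not pass (fitted change -0.59 ± 0.21 SE; limma adjusted p = 0.079). The split into earlier and later arrays was already known from these data, so that order is a description. The fitted change of a second Slc25a1 probe was -0.25, which did not pass (limma adjusted p = 0.51). Slc25a10, the dicarboxylate carrier, was below detection on the 0, 2 and 8 h arrays and read 56.8 to 76.4 on the other 3.

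**Figure D2:**
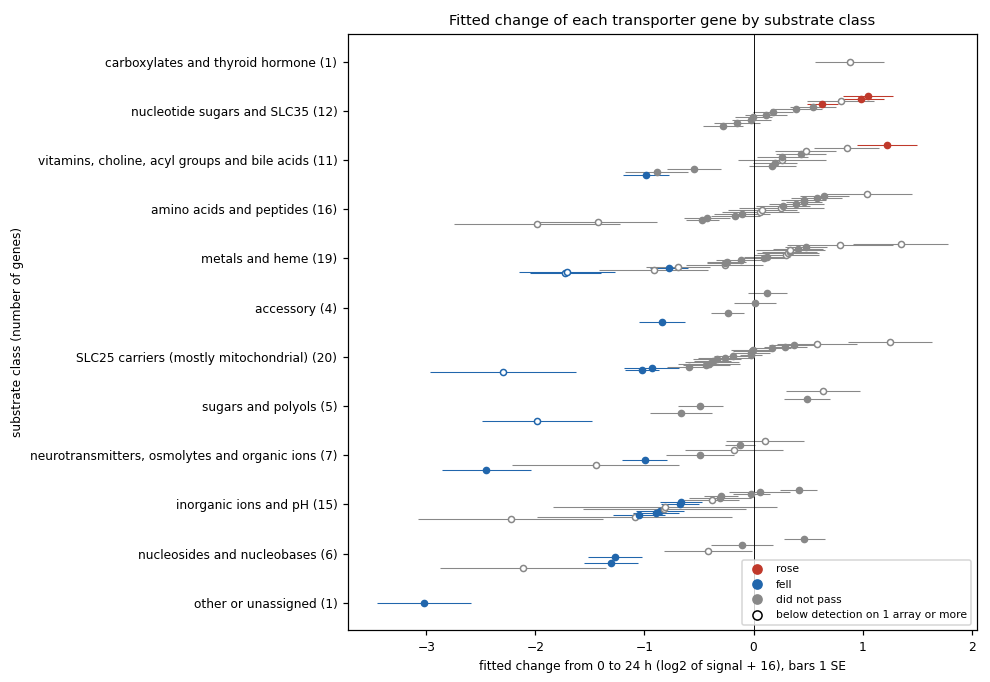
Fitted change of each of the 117 transporter genes from 0 to 24 h (horizontal axis, log2 of signal + 16, bars 1 SE from limma) by substrate class (vertical axis, number of genes in brackets, ordered by class median). Blue points fell, red points rose, grey points did not pass and open points were below detection on at least 1 array; the nucleotide sugar and SLC35 class holds 3 of the 4 red points and the amino acid class holds 0 coloured points.

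Of 16 amino acid and peptide carriers, 0 passed in either direction, where 7.47% of all kept genes fell and 6.7% rose. By limma at an unadjusted p under 0.05 this class held 5 genes sloping up (31.2%, against 15.7% of all genes) and 3 sloping down (18.8%, against 15.4%). Of those sloping down, Slc6a18 and Slc1a6 reached the minimum signal at 2 h alone. Slc1a4, among those sloping up, reached it at 12 h alone. The slopes of Slc6a18, Slc1a6 and Slc1a4 were thus partly set by how genes were kept. Slc7a3, the cationic amino acid transporter CAT-3 that brings in arginine and lysine, measured 4070, 3316, 2796, 3141, 2901 and 2884. It was highest at 0 h, and its fitted change was -0.47 ± 0.15 (SE; limma adjusted p = 0.059). Slc38a2, the neutral amino acid transporter SNAT2 that rises on amino acid shortage in many cells, measured 2597, 3185, 3108, 3635, 4026 and 3288. Its lowest array was 0 h, and the fitted change was 0.46 ± 0.16 (SE; limma adjusted p = 0.085). A second probe of Slc38a2 gave 892, 1339, 1120, 1489, 1514 and 1453 and passed (fitted change 0.71; limma adjusted p = 0.032), so its probes were on different sides of the threshold.

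Of the 6 SLC38 genes, 5 sloped upward (83.3%, against 51.3% of all genes) and 0 passed, and Slc38a1, Slc38a2 and Slc38a4 follow each other in RefSeq with no protein-coding gene between. Slc38a1, the relative SNAT1, went between 79.8 and 122. Slc7a7, which pairs with a heavy chain to exchange cationic for neutral amino acids, measured 568, 625, 513, 854, 715 and 882. The later arrays of this probe were above the earlier ones, but those of a second probe (548, 511, 552, 840, 542 and 852) overlapped them, and the first probe's fitted change was 0.65 ± 0.23 (SE; limma adjusted p = 0.080). Slc1a3, a glutamate carrier, also had its later arrays on top, at 331, 368 and 324 against 212 to 258. Slc1a5, Slc3a2, Slc7a1, Slc7a8, Slc6a9 and Slc39a8, looked for because of their place in amino acid or metal supply, stayed below 60 on every array, with 48.8 the highest value of Slc3a2 and 57.2 that of Slc6a9. No probe was annotated to Slc7a5.

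Among 7 carriers of neurotransmitters, osmolytes and organic ions, 2 fell (28.6%, against 7.47% of all kept genes) and 0 rose (against 6.7%). Besides Slc17a9 this was Slc6a8, the creatine importer, at 1375, 1453, 1292, 892, 873 and 755. It was lower on every later array than on any earlier one, 1.80-fold below 0 h at 24 h, and the fitted change was -0.999 ± 0.20 (SE; limma adjusted p = 0.013). Slc6a6, the taurine importer, of the same SLC6 family, was steady between 3015 and 3675 (fitted change -0.12 ± 0.14 SE; limma adjusted p = 0.59). Slc47a1, an exporter of organic cations, measured 155, 155, 140, 76.9, 103 and 136, with its lowest array at 8 h, and did not pass.

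Of the 12 SLC35 genes, 3 rose (25.0%, against 6.7% of all kept genes) and 0 fell (against 7.47%). That left 1 of the 4 rises to the other classes. Slc35b4, the Golgi and endoplasmic reticulum carrier of UDP-xylose and UDP-N-acetylglucosamine, measured 247, 316, 311, 456, 510 and 442. It was highest at 12 h, 2.00-fold above 0 h, and the fitted change was 0.99 ± 0.21 (SE; limma adjusted p = 0.013). Slc35e3, a family member with no substrate named here, measured 209, 291, 276, 305, 496 and 416 and had its largest step between 8 and 12 h (fitted change 1.05 ± 0.23 SE; limma adjusted p = 0.015). Slc35b1, which brings nucleotides into the endoplasmic reticulum, climbed from 880 through 1074, 1151, 1315 and 1267 to 1363. That was 1.54-fold above 0 h at 24 h, and the fitted change was 0.63 ± 0.14 (SE; limma adjusted p = 0.018). In all 3 the later arrays lay above the earlier ones, and none of the 3 passed without the 0 h array (limma adjusted p from 0.11 to 0.15). The remaining 9 SLC35 genes had fitted changes from -0.28 (Slc35c2) to 0.80 (Slc35a1, the CMP-sialic acid carrier), and 11 of the 12 were detected on every array.

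Of 11 carriers of vitamins, choline, acyl groups and bile acids, 1 rose (9.09%, against 6.7% of all kept genes) and 1 fell (9.09%, against 7.47%). Slc27a3, an acyl-CoA synthetase of the fatty acid transport family, read 119, 124, 134, 240, 278 and 236. It was flat until 4 h, 2.17-fold above 0 h at 12 h, and its fitted change was 1.23 ± 0.27 (SE; limma adjusted p = 0.017). Its relative Slc27a2, which activates very long chain fatty acids, read 332, 256, 169, 219, 257 and 138, and its fitted change of -0.89 ± 0.29 did not pass (SE; limma adjusted p = 0.065). The fall was that of Slc44a1, the choline carrier CTL1, which went 606, 435, 502, 311, 311 and 324 (fitted change -0.99 ± 0.21 SE; limma adjusted p = 0.014). Its paralog Slc44a2 did not pass, and lay between 381 and 513. The folate carrier Slc19a1 and the thiamine carrier Slc19a2 were both highest at 8 or 12 h, at 180 and 824, and neither passed.

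Of 5 sugar and polyol carriers, 1 fell and 0 rose, where 7.47% of all kept genes fell and 6.7% rose. Slc37a1, an exchanger of glucose 6-phosphate and phosphate, was detected at 0 h (64.02) and 4 h (51.5) only, read 35.6 at 2 h, and then 14.7, 12.9 and 4.98. It was at least 2.29-fold lower at 24 h, and the fitted change was -1.99 ± 0.51 (SE; limma adjusted p = 0.028). It reached the minimum of 60 at 0 h alone, so that fall was partly set by how genes were kept, and it failed the test in 4 of the 6 fits without 1 array. Slc2a8, the intracellular glucose carrier GLUT8, had its later arrays at 62.9, 57.4 and 49.8, below the earlier ones at 78.2, 100 and 83.9, and did not pass (limma adjusted p = 0.14). Slc45a4 was lower on all 3 later arrays (464 to 543) than on the earlier ones (618 to 728) and did not pass (limma adjusted p = 0.14). Slc16a6 was the 1 monocarboxylate carrier kept, with Slc16a1 and Slc16a3 left out from the start. It read 30.99 at 0 h, below detection, and 71.3 at 24 h, at least 1.14-fold higher, and did not pass. It was detected at 4, 12 and 24 h alone. It reached the minimum of 60 at 24 h alone, so a higher value there was built into how it was kept.

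A further 4 members are named for transporters but are not carriers themselves. Slc9a3r2, the scaffold NHERF2 that tethers ion exchangers to the cytoskeleton, fell from 244, 264 and 193 to 156, 146 and 153 (fitted change -0.84 ± 0.21 SE; limma adjusted p = 0.026), and failed the test in 4 of the 6 fits without 1 array. Its paralog Slc9a3r1, the scaffold NHERF1, ranged from 650 to 802 and ended at 786 against 784 at 0 h. Slc4a1ap and Slc7a6os did not pass.

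**Figure D3:**
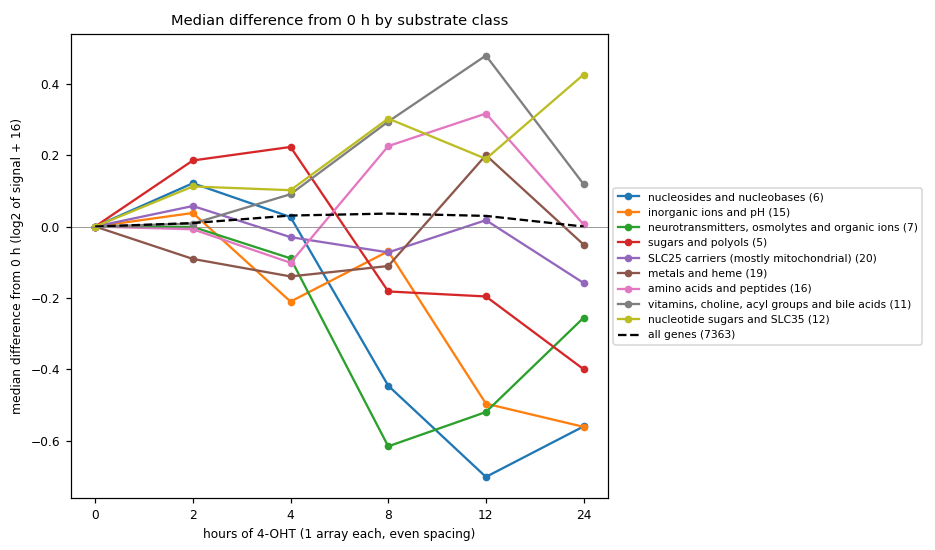
Median difference from the 0 h array (vertical axis, log2 of signal + 16) over the genes of each substrate class with 5 or more members, at each time (horizontal axis, hours of 4-OHT at even spacing, 1 array each), with the median of all 7363 kept genes dashed. The nucleoside and the inorganic ion classes both end at -0.56 and the SLC35 class at 0.43, while the dashed line stays between 0.0 and 0.036. Values below detection are included in the medians.

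Class medians were read beside the median of all kept genes. At 24 h the median difference from 0 h was -0.56 for the nucleoside class and -0.56 for inorganic ions, 0.43 for the SLC35 class, 0.0058 for amino acids and -0.16 for SLC25 carriers. Over all 117 it was -0.11, and over all kept genes 0.0. At 12 h the amino acid class stood at 0.32 and the vitamin class at 0.48, and both were nearer 0 at 24 h.

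Counts of genes at least 2-fold from 0 h, which have no test with 1 array per time, were as follows on the scale of signal + 16. At 2 h, 0 of 102 comparable transporter genes were higher (background 0.0299%) and 0 were lower (0.15%). At 4 h, 0 of 114 were higher (0.0%) and 3 were lower (0.985%), namely Slc17a1, Slc22a18 and Slc25a22. At 8 h, 2 of 101 were higher (1.15%), Slc12a1 and Slc40a1, and 2 were lower (2.94%), Slc17a9 and Slc66a2. At 12 h, 4 of 113 were higher (1.54%), Slc27a3, Slc35b4, Slc35e3 and Slc40a1, and 9 were lower (5.32%). At 24 h, 0 of 113 were higher (1.58%) and 12 were lower (5.2%), the 9 of 12 h with Slc27a2, Slc29a1 and Slc29a3. Of those 12, 6 were below detection at 24 h, so that their folds are bounds. Slc22a18, Slc25a22, Slc37a1 and Slc43a3 reached 60 at 0 h alone and Slc41a1 at 0 and 2 h alone, so lower values at 4, 12 and 24 h were built into how these 5 were kept. Slc17a1 reached 60 at 0, 2 and 8 h alone, so its lower values at 4, 12 and 24 h were built in too. Slc31a2 reached 60 at 0, 2 and 4 h alone, so its lower values at 12 and 24 h were partly built in. Slc12a1, counted as higher at 8 h, reached 60 at 2 and 8 h alone. Among genes with a mean of at least 60, 6 of 92 were lower (6.52%), against 3.59%, and 0 were higher, against 1.73%. Because a dim gene is compared with the detection limit, and that limit was 60.6 at 0 h and 18.9 at 24 h, bounds were easier to pass downward than upward. With 64 in place of 16 added, 2 were lower at 12 h and 3 at 24 h, and 1 was higher at 12 h. Shares of all genes were not counted with 64 added, so whether a gap to all genes remained cannot be read from these counts.

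**Figure D4:**
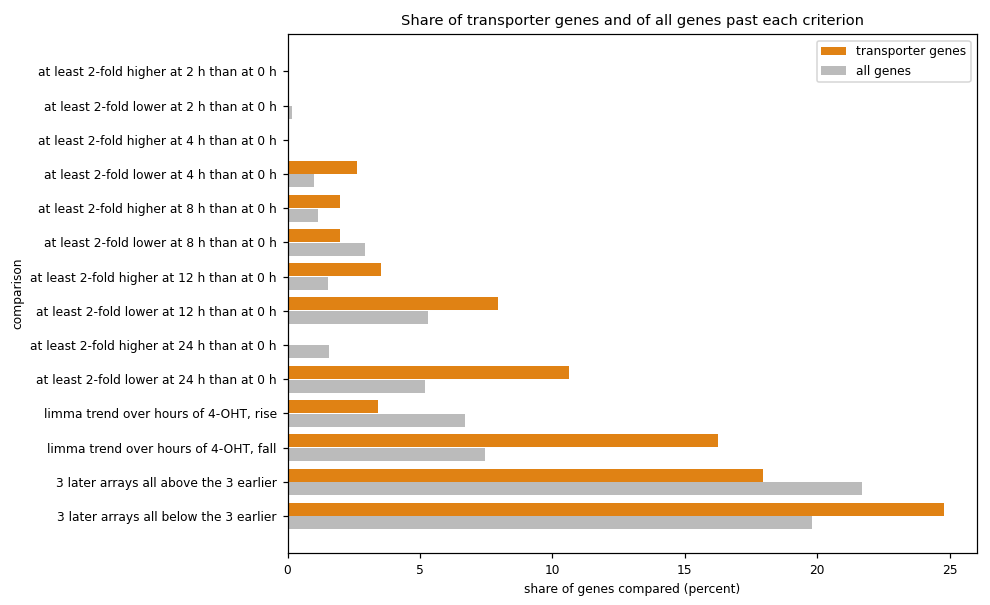
Share (percent, horizontal axis from 0) of comparable transporter genes (orange bars) and of all kept genes (grey bars) past each criterion (vertical axis): 2-fold differences from 0 h at each time, the limma trend test in each direction, and the order of the 3 later against the 3 earlier arrays. The widest gaps are for falls by the trend test, 16.2% against 7.47%, and for genes at least 2-fold lower at 24 h, 10.6% against 5.2%, a count in which 5 of the 12 transporter genes were kept through the 0 h or the 0 and 2 h arrays alone. Also among the 12, Slc17a1 was kept through the 0, 2 and 8 h arrays alone, and Slc31a2 through the 0, 2 and 4 h arrays alone.

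The interval of the largest change was counted for each gene. The largest step between neighbouring arrays was from 4 to 8 h for 13 of the 23 called transporter genes (56.5%), and for 67.1% of all 1043 called genes. For 5 of the 23 (21.7%, against 13.9% of all called genes) it was the first, from 0 to 2 h, namely Slc12a7, Slc20a1, Slc25a15, Slc25a22 and Slc35b1. All 3 later arrays lay below all 3 earlier ones for 29 of the 117 (24.8%), against 19.8% of all kept genes, and above them for 21 (17.9%), against 21.7%. The highest array was 12 h for 33 of the 117 (28.2%), against 18.8% of all kept genes, and 24 h for 10 (8.55%), against 18.6%. The lowest was 24 h for 40 (34.2%), against 20.5%. Of those highest at 12 h, Slc15a2, Slc1a4, Slc25a10 and Slc38a9 reached the minimum at 12 h alone, so that peak was built into how they were kept.

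Partners and carriers outside the SLC nomenclature were examined from a list of 32 genes, of which 27 were on the array and 13 were kept. By the same limma test 3 fell and 1 rose of the 13, against 7.47% and 6.7% of all kept genes. Atp1b1, the beta subunit of the sodium pump whose gradient drives many solute carriers, declined on every successive array from 857 to 318 (fitted change -1.37 ± 0.16 SE; limma adjusted p = 0.0028). Tfrc, the transferrin receptor that takes in iron, went from 2804 to 1041 (fitted change -1.30 ± 0.20 SE; limma adjusted p = 0.0046). Slco4a1, an organic anion carrier, went from 239 to 98.2 (fitted change -1.06 ± 0.26 SE; limma adjusted p = 0.024). Flvcr1, an exporter of heme, rose from 122 to 207 with a peak of 295 at 12 h (fitted change 1.116 ± 0.32 SE; limma adjusted p = 0.042). In RNA from whole cultures, fewer cells of a kind and less RNA per cell cannot be told apart in any of these values.

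Probes and arrays were set against each other as a check. Of 21 transporter genes with several probes above the minimum, 19 had slopes of 1 sign over all their probes and 2 had slopes of both signs (Slc25a11 and Slc39a7). The 3 called genes among them (Slc17a9, Slc29a1 and Slc9b1) passed with every probe. Of the 23 called genes, 3 passed in every fit that left out 1 array (Slc17a9, Slc29a3 and Slc66a2), and 20 failed in at least 1 such fit, each keeping its direction.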

How the data were processed

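Transcripts of E14 cells with Snail-ER were measured on Illumina bead arrays, 1 array at each of 6 times, and arrays were assigned from the sample titles. The authors deposited a table of normalized probe intensity for 45281 probes. From the values, it is linear, background-subtracted, quantile normalized and not centred by gene, with a minimum of -17.7 and a maximum of 32363 on every array, and the array medians were 4.71 to 4.77. The submitters' processing notes name GenomeStudio without a version, and the steps are not given in the sources used here. The authors also deposited intensity without background subtraction and, per the file headers, a detection p-value for each probe. That table, as held here, covers 32765 probes (72.4%) and 13 of the 117 transporter genes, so the normalized table was used throughout and the other set detection limits.

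Gene symbols came from the platform annotation (34885 probes with 1 symbol, 18 with several, 10378 with none), and all 117 genes matched RefSeq by identifier with the same symbol. Only probes with 1 symbol were used. Negative values were set to 0 and 16 was added before log2 of the deposited intensity, so folds understate the change of dim genes. A probe counted as detected on an array if its normalized signal was at least that of the weakest probe with detection p under 0.01. Where the lower side was below detection, the fold is against that array's limit or the gene's own signal, whichever was higher, and is written "at least". No fold was formed with both sides below detection.

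Trends were fitted with limma 3.58.1 in R 4.3.3 (lmFit, eBayes with an intensity trend, 2-sided, 4 residual degrees of freedom) on all 7363 genes, with Benjamini-Hochberg adjustment over all of them. The fit was tested on simulated data. Tables were handled in Python 3.11.15. Substrate classes (12 in all) were assigned from the symbol. The genes named are those past the test, the brightest of each class and a list known for stem cell metabolism, and others were added where a sentence needed them, after their values were seen. The members, classes and lists were chosen with earlier results of these data known. Alternatives changed the number added, the minimum, the time scale, the probe rule, the variance model, the table and the arrays used, and analyses of the genes detected on all 6 arrays, and of those with a mean of at least 60, were added after the data were examined. Array number limits the precision, and the arrays' dates were not used. No coordinates of probes are given because the tables name no genome build.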

Additional observations from a re-analysis of the deposited data

How the results depend on the processing

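The number of transporter genes that fell (19) or rose (4) changed most with the time scale and the genes tested. With untransformed hours, 0 fell and 0 rose by limma after adjustment (26 and 10 at an unadjusted p under 0.05), and over all genes 13 fell and 22 rose. With no minimum signal, 0 fell and 0 rose (24 and 13 unadjusted) and 0 of 19057 genes passed. The fitted changes were then the same. The adjustment ran over more genes, and the unadjusted counts were also lower than those of the main minimum (30 and 19). Those main counts were 25.6% and 16.2% of the transporter genes, against 15.4% and 15.7% of all genes. For untransformed hours and for no minimum, unadjusted shares of all genes were not counted. When the 3 later arrays were set against the 3 earlier ones, 24 fell and 13 rose, against 12.9% and 12.2% of all genes. That split was already known from these data, so these counts are a description. With a minimum mean of 60, chosen after seeing the data, 15 fell and 4 rose, and 6 were at least 2-fold lower at 24 h. Leaving out 1 array at a time gave 7 to 20 falls and 0 to 6 rises. Without the 0 h array, 7 fell and 0 rose (2.87% and 2.62% of all genes). Without the 2, 12 or 24 h array, 11, 11 and 8 fell (3.94%, 3.67% and 4.83%). No called gene reversed. Of the 23 calls, 22 held with 4 added before log2, 23 with 64 added, 23 with every probe of a gene required to pass and 22 without the intensity trend. Of the 20 called genes that reached a minimum of 120, 18 held. In the less processed table, which covers 13 of the genes, 2 falls held and 0 rises were seen. Counts of 2-fold differences shrank with 64 added, to 0 lower at 4 h, 0 higher at 8 h, 1 higher and 2 lower at 12 h and 3 lower at 24 h. With 4 added, 2 were higher at 2 h. Shares of all genes at least 2-fold from 0 h were not counted with 4 or 64 added. No paired analysis was possible because each time has 1 array. Of the 117 genes, 36 were below detection on at least 1 array, and differences among such values are not resolved.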
